A study of Mus musculus with 18 samples.

Results

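The carnitine shuttle and the enzymes that set the level of malonyl-CoA were followed in the mouse heart through 7 genes, out of 18193 genes named on the array. They were chosen by gene symbol: the carnitine transporter Slc22a5, the carnitine acyltransferases Cpt1a, Cpt2 and Crat, the malonyl-CoA decarboxylase Mlycd, and the acetyl-CoA carboxylases Acaca and Acacb. The array holds 15 probe sets for them, between 1 and 3 per gene, and the brightest set by mean signal stands for the gene. All 7 genes passed the filter on low signal.

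RNA from ventricular myocardium was hybridised to 18 Affymetrix arrays, and the values are MAS5 signals, linear intensities that combine the matched and mismatched probes of a set. The ob/ob mouse carries an inactive leptin gene and becomes obese, because leptin is the fat-derived hormone that restrains food intake; here it was on the C57Bl/6J background. All ob/ob animals reached 6 months of age on free feeding and then spent 1 month in their group: still fed ad libitum (n = 4 arrays), calorie restricted to the intake of the leptin group (n = 5), or given recombinant mouse leptin from an osmotic mini-pump (n = 5). Wild type C57Bl/6J mice of 6 to 8 months (n = 4) served as controls, so they could be younger or older than the ob/ob mice, and the labels name no treatment for them. A pump is named for the leptin group only. The 3 ob/ob groups share the inactive leptin gene, and leptin in the treated group came from the pump alone. The labels number the arrays within each group without stating that each is a separate mouse, so p-values cover only the spread among these arrays, which may be technical.

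Long-chain fatty acids are the main fuel of the adult heart, and they cross the inner mitochondrial membrane only as carnitine esters. Slc22a5 brings carnitine into the cell, the Cpt1 enzymes of the outer membrane make acylcarnitine, a carrier exchanges it across the inner membrane, and Cpt2 turns it back into acyl-CoA for beta-oxidation. Malonyl-CoA inhibits Cpt1 enzymes: acetyl-CoA carboxylases make it and malonyl-CoA decarboxylase removes it, so its level sets how fast fatty acids enter the mitochondrion.

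Cpt1a and Mlycd carry the differences described here, and the 250 bases upstream of their RefSeq gene starts are shown because both genes moved in the same comparisons. The windows lie at chr19:3323051-3323300 for Cpt1a and chr8:119394644-119394893 for Mlycd, both on the plus strand of GRCm38.p6, and are written 5′ to 3′ with the last base next to the start. Capitals mark every match to 6 motifs that were searched on both strands: the nuclear receptor half-site AGGTCA, its direct repeat AGGTCANAGGTCA, the GC box GGGCGG, the CCAAT box CCAAT, the E-box CACGTG and the TATA box TATAAA.
Cpt1a: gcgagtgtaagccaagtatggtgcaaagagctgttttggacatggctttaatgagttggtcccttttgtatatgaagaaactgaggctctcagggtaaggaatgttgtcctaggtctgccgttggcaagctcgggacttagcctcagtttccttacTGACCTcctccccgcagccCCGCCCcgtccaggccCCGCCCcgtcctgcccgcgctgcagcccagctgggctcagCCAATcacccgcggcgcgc
Mlycd: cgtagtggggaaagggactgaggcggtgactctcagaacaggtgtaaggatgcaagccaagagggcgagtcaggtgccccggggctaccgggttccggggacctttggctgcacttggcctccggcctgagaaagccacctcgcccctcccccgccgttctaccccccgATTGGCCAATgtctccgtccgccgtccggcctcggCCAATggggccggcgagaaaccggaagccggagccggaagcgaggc

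The Cpt1a window held 1 half-site, on the minus strand 89 to 94 bases upstream of the start, 2 GC boxes on the minus strand and 1 CCAAT box. The Mlycd window held 3 CCAAT boxes and no half-site or GC box. A pair of the CCAAT boxes adjoin on opposite strands, at 77 to 81 and 72 to 76 bases upstream, and the remaining one lies at 42 to 46 bases. RefSeq windows matched 6 of the 7 genes, and neither the direct repeat nor the E-box occurred in any of these 6. Among all 32851 windows of the same length, 14.0% held the half-site, 0.0335% the direct repeat, 32.7% a GC box, 33.8% a CCAAT box, 6.02% the E-box and 12.4% a TATA box. The half-site is the only listed match that Cpt1a did not share with another of the 6 windows. The half-site and the direct repeat overlap in letters, and a match describes the sequence, not binding. G and C made up 59.6% of the Cpt1a window and 67.6% of the Mlycd window, against a median of 52.4% over all windows.

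The arrays carried ventricular transcripts throughout. Signal of Myl2, the ventricular myosin light chain, lay between 6368 and 10029, and 0 of 8 ventricular cardiomyocyte markers were called by limma in any of the 6 comparisons between groups, though 0 to 6 of them had an unadjusted p under 0.05. Calorie restricted replicates 2 and 3 stood apart through atrial transcripts: the summed signal of 5 atrial markers was 14409 and 14851 there, against 564 to 3093 on the other 16 arrays. The same arrays had the highest signal of the adipocyte hormone Adipoq, 26.4 and 56.3, against 0.644 to 12.5 elsewhere. Summed signal of the 5 white adipocyte markers on the array was 401 to 569 in the restricted group and 210 to 381 in the other groups, most of it from Lipe, a lipase that heart muscle also uses. Lipe was called higher under restriction than in ad libitum hearts (0.72, limma adjusted p = 0.0397) and in wild type (0.67, 0.0354). It was called lower with leptin than under restriction (-0.75, 0.0119). Of 2 brown adipocyte markers, Ucp1, which defines brown fat, was at 5.27 or below outside the restricted group, reached 49.9 on restricted replicate 3 and did not pass the filter on low signal. The other, Cidea, a lipid droplet protein, rose from a mean of 416 in ad libitum to 758 in restricted hearts (log2 change 0.85; limma adjusted p = 1.59e-04), was lower with leptin than under restriction (-0.71; 1.59e-04) and was higher under restriction than in wild type (0.82; 1.07e-04). The sum of both was 621 to 817 on the restricted arrays and 382 to 500 on the others, so it separated the same arrays as Cpt1a and Mlycd below. Among 4 smooth muscle markers 1 was called in restriction against ad libitum, Tagln, which was higher (0.59; limma adjusted p = 0.0325); the summed signals were 1216 to 1630 and 1073 to 1227. In restriction against ad libitum, 5 of 7 fibroblast, 2 of 6 endothelial and 2 of 6 macrophage markers were called, all lower; Dcn, the brightest fibroblast marker, had a mean of 3333 against 2878 and did not pass. The summed signals of these lists were 4119 to 5454, 1281 to 1577 and 1112 to 1512, against 5418 to 6294, 1641 to 2297 and 1585 to 1969. In leptin against restriction, 5 of 7 fibroblast, 3 of 6 endothelial and 4 of 6 macrophage markers were called, all higher with leptin. In restriction against wild type, 5 of 7 fibroblast, 0 of 6 endothelial and 4 of 6 macrophage markers were called, all lower. The part of these cell types in the results below was not tested, except where values with and without the 2 atrial-rich arrays, or with the markers as a covariate, are given.

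Across the 4 groups, Cpt1a and Mlycd differed and the other 5 genes did not pass the test. Both were higher in calorie restricted ob/ob hearts than in every other group and both overlapped ad libitum and wild type arrays in ob/ob hearts given leptin. The moderated F test of limma over the 4 groups gave Cpt1a an adjusted p of 0.00136 and Mlycd one of 7.58e-04, where 12.2% of the 13359 genes tested were called. Of the remaining genes Crat had the smallest adjusted p, 0.166. In whole tissue, fewer cells of a type and less RNA per cell cannot be told apart. The plot of signal on each array shows these groups.

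**Figure D1:**
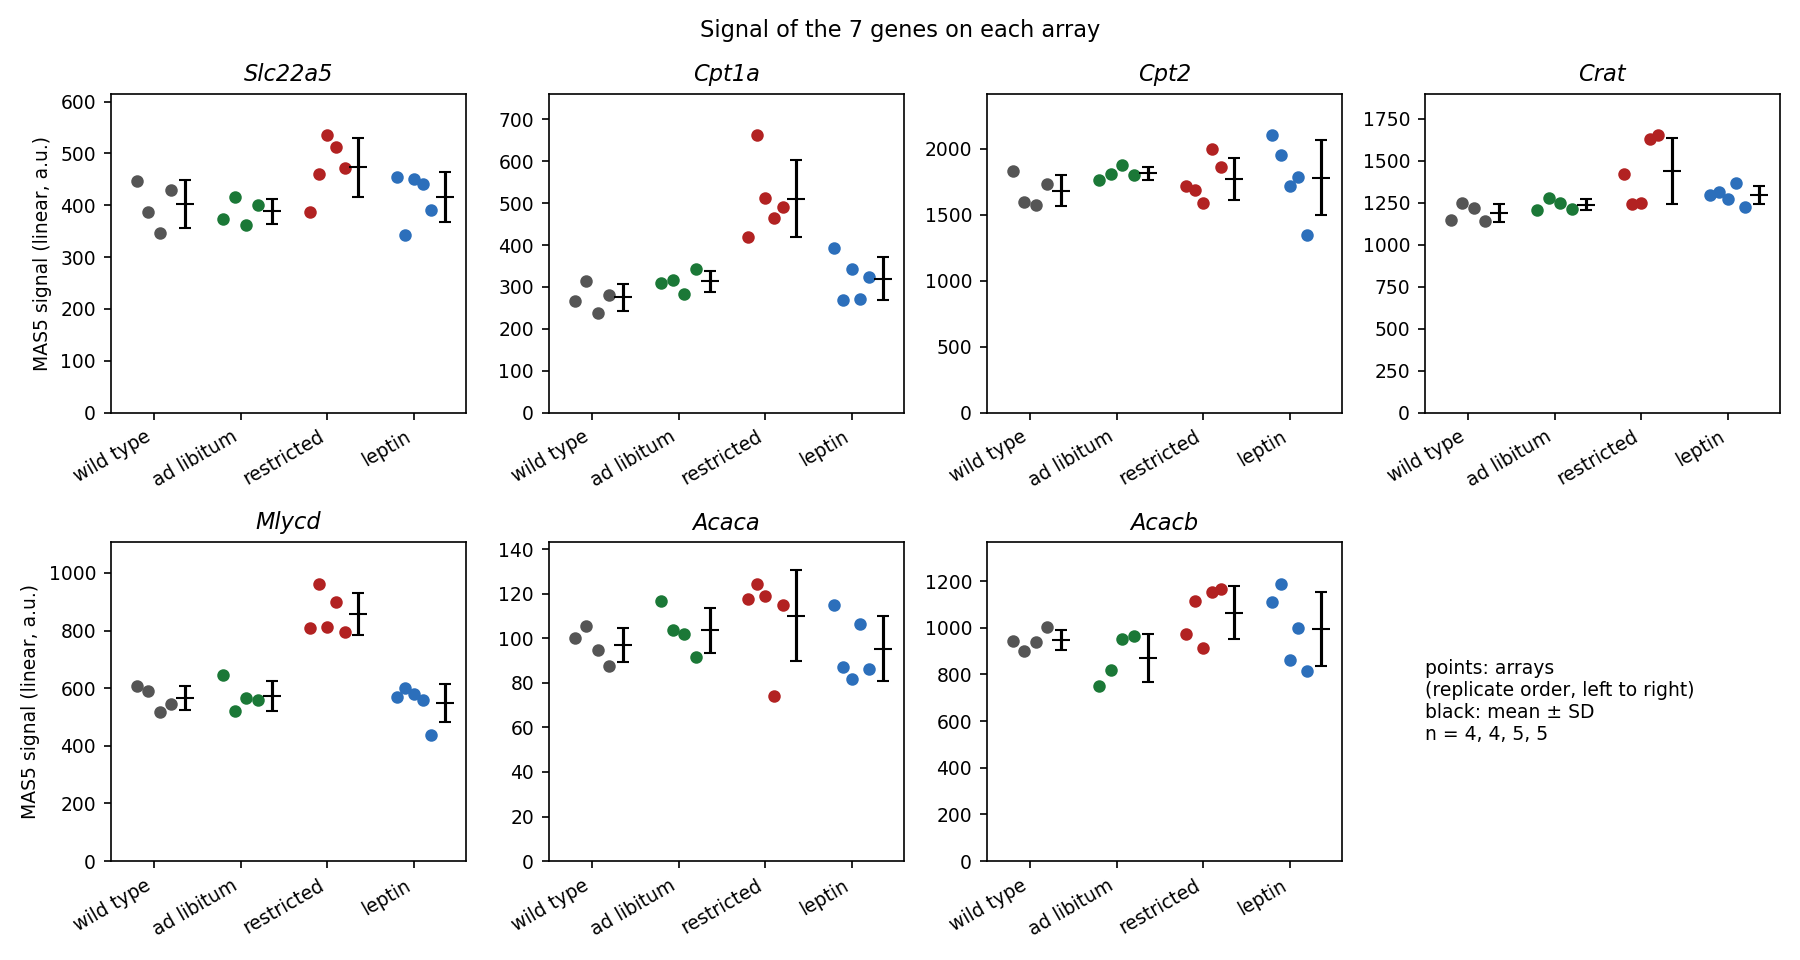
MAS5 signal (linear, arbitrary units, axes from 0) of the 7 genes on each of the 18 arrays, by group; points are arrays in replicate order and black marks are the mean ± SD (n = 4, 4, 5 and 5). All 5 restricted arrays lie above the other 13 for Cpt1a (420 against at most 392) and for Mlycd (794 against at most 646), while the groups overlap for the other genes.

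Counted over all 6 pairwise comparisons, 6 of 42 gene-by-comparison values passed at a Benjamini-Hochberg adjusted p under 0.05, the threshold used for every call. They were the same 6 in which the groups did not overlap: Cpt1a and Mlycd in each comparison that involved the restricted group. Over all genes tested, the groups did not overlap for 9.21% in restriction against ad libitum, 10.9% in leptin against restriction, 13.6% in restriction against wild type, 7.06% in ad libitum against wild type, 5.34% in leptin against ad libitum and 3.24% in leptin against wild type. In calorie restriction against ad libitum, 2 of 7 were called, both higher, where 5.42% of all genes were called. In leptin against calorie restriction, 2 of 7 were called, both lower in the leptin group, beside 13.6% of all genes. In calorie restriction against wild type, 2 of 7 were called, both higher, beside 11.3% of all genes. Without restricted replicates 2 and 3, 3 of 7 were called in each of these comparisons, Crat being the addition. Those arrays had the lowest Crat signals of the restricted group, 1243 and 1247. The shares of all genes above are from the fit with all 18 arrays, and none is given for the smaller fit. The restricted arrays are common to all of these comparisons, so their values are not independent. The median log2 change of the 7 genes was 0.28 for restriction against ad libitum, -0.18 for leptin against restriction and 0.23 for restriction against wild type, where the medians of all genes tested were -0.0016, -0.025 and 0.0025. For the 8 ventricular cardiomyocyte markers the medians were 0.092, -0.060 and 0.26 in the same order. In restriction against wild type all 8 markers were higher, so a median of 0.23 there was not particular to the 7 genes.

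**Figure D2:**
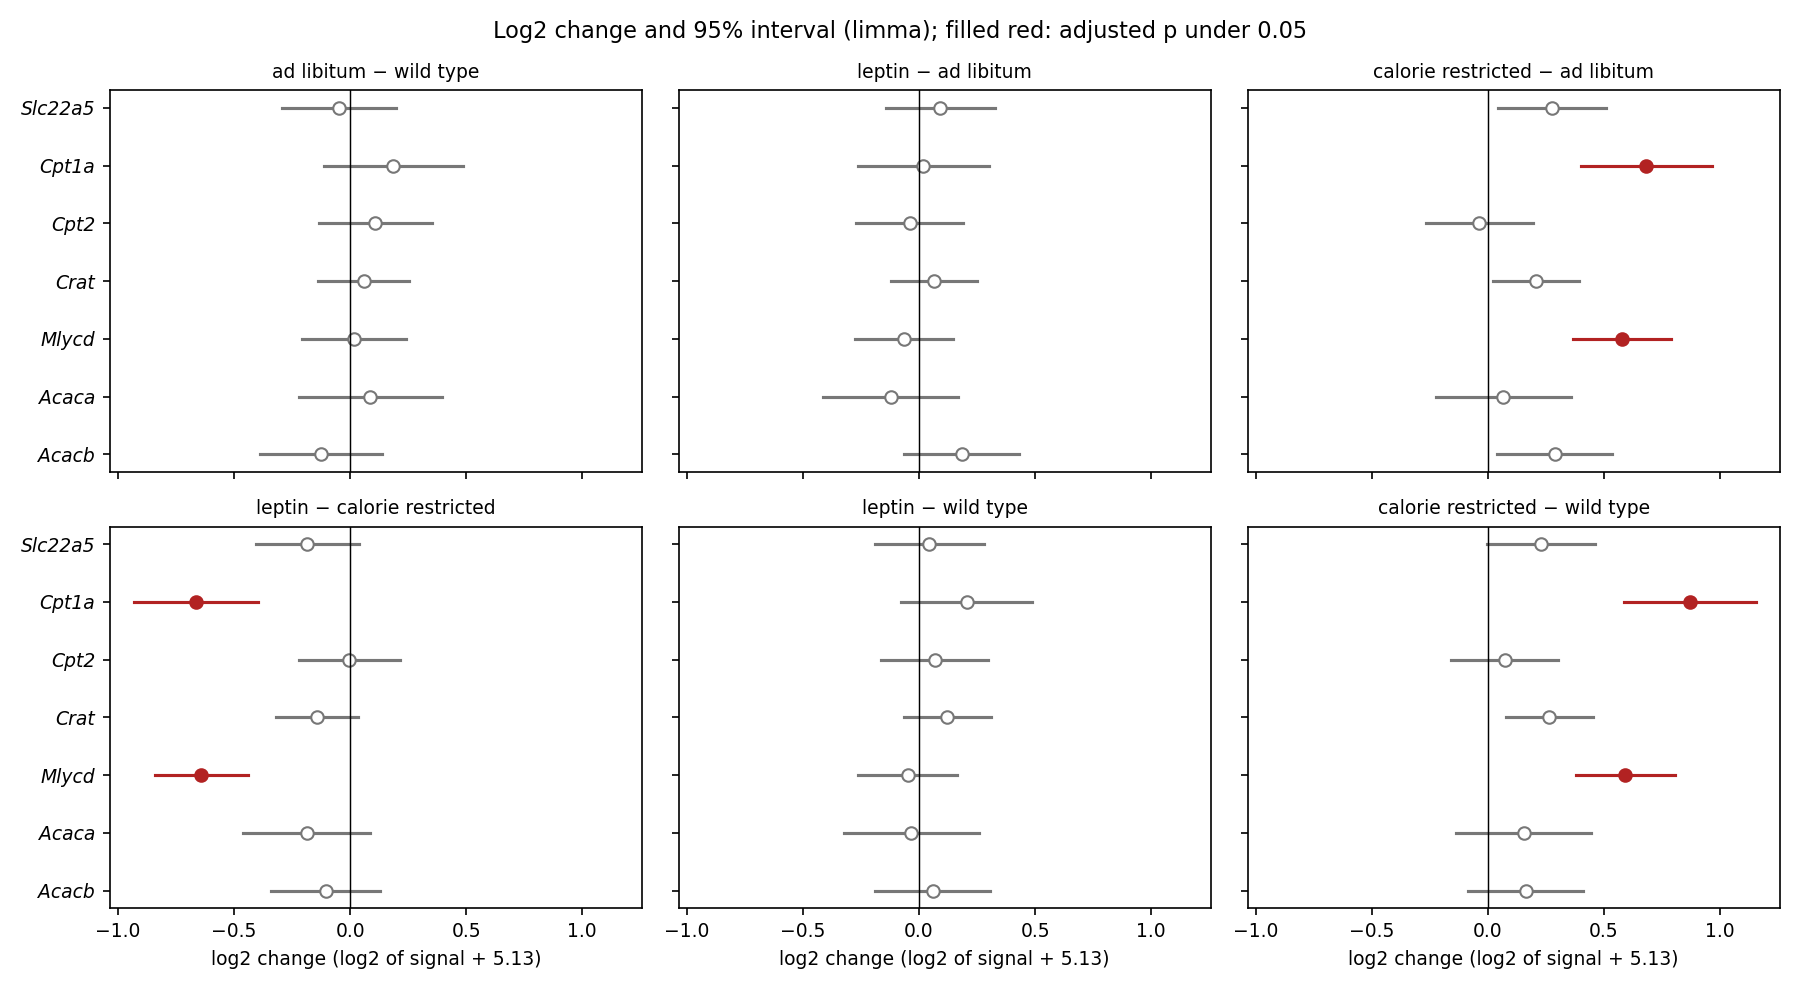
Log2 change of each gene with its 95% confidence interval in the 6 comparisons (limma on the log2 of signal + 5.13); filled red points passed at an adjusted p under 0.05. Only Cpt1a and Mlycd are filled, in the 3 comparisons with the restricted group; the intervals of the other genes mostly span 0.

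The carnitine transporter came first in the pathway and did not pass in any comparison. Slc22a5, which carries carnitine across the plasma membrane, read 448, 387, 345 and 430 in wild type and 374, 416, 362 and 401 in ad libitum ob/ob hearts. It read 386, 460, 535, 512 and 473 under restriction and 454, 342, 452, 441 and 390 with leptin. The restricted group had the highest mean and 4 of its 5 arrays lay above the other 13, but its lowest array fell inside every other group. Its log2 change against ad libitum was 0.28 ± 0.11 (SE; 95% interval 0.04 to 0.51; limma adjusted p = 0.174), and leptin against restriction gave -0.18 (-0.41 to 0.04; limma adjusted p = 0.279). The dimmer probe set of Slc22a5, 1421848_at, gave 0.21 ± 0.12 and -0.37 ± 0.11 in the same comparisons when all probe sets were fitted, and the second value passed (limma adjusted p = 0.0383).

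Cpt1a is the form of the outer-membrane acyltransferase best known from liver; it catalyses the step that malonyl-CoA inhibits. The muscle form, Cpt1b, was not analysed here. Its signal was 266, 315, 238 and 282 in wild type hearts (mean 275 ± 32.2, SD, n = 4) and 310, 317, 283 and 343 in ad libitum ob/ob hearts (313 ± 24.8, n = 4). Under calorie restriction it was 420, 663, 512, 466 and 492 (511 ± 91.7, n = 5). With leptin it was 392, 268, 343, 272 and 325 (320 ± 52.0, n = 5). Every restricted array was above every other array, replicate 2 most of all, whereas wild type, ad libitum and leptin arrays overlapped.

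The restricted mean of Cpt1a was 1.63 times the ad libitum mean, a log2 change of 0.68 ± 0.13 (SE; 0.40 to 0.97; limma adjusted p = 0.00624). Leptin hearts lay 0.66 below restricted hearts, at -0.66 ± 0.13 (limma adjusted p = 0.00250), and restricted hearts 0.87 ± 0.13 above wild type (limma adjusted p = 6.85e-04). For this probe set the order of the means was restricted, leptin, ad libitum and wild type, and only the step from restricted to leptin exceeded the spread. The intervals of the other differences were -0.11 to 0.49 for ad libitum against wild type, -0.26 to 0.30 for leptin against ad libitum and -0.08 to 0.49 for leptin against wild type.

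Restricted replicate 2, the highest Cpt1a array, was also one of the atrial-rich arrays, so the gene was refitted with that in view. Without restricted replicates 2 and 3 the change against ad libitum was 0.55 (limma adjusted p = 0.0460), against wild type 0.73 (0.00533), and leptin against restriction -0.53 (0.0223). With the mean log2 value of the atrial markers as a covariate the change against ad libitum was 0.61 and no longer passed (limma adjusted p = 0.0576), while leptin against restriction, -0.60 (0.0169), and restriction against wild type, 0.84 (0.00138), did. With white adipocyte markers as a covariate, an alternative chosen after seeing the data, all 3 passed, at 0.70 (limma adjusted p = 0.0169), -0.69 (0.0183) and 0.88 (0.00112). Lipe, 1 of these markers, was itself called in the same 3 comparisons.

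Cpt2, the inner-membrane enzyme that releases acyl-CoA inside the mitochondrion, held nearly the same signal in every group. Its means were 1682 ± 119 in wild type, 1811 ± 49.3 ad libitum, 1770 ± 161 under restriction and 1780 ± 285 with leptin. Leptin replicate 5 was its lowest array, at 1345, and leptin replicate 1 its highest, at 2102, so the leptin group spanned all others. The change of restricted against ad libitum hearts was -0.04 (-0.27 to 0.19; limma adjusted p = 0.906), and of leptin against restricted hearts -0.0034 (-0.22 to 0.21; limma adjusted p = 0.987). The intervals exclude a change of Cpt2 as large as that of Cpt1a in the same comparisons.

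Crat, the short-chain acyltransferase that moves acetyl groups between CoA and carnitine, turned on which restricted arrays were counted. It read 1145, 1251, 1220 and 1140 in wild type, 1210, 1278, 1249 and 1214 ad libitum, 1423, 1243, 1247, 1628 and 1653 under restriction, and 1297, 1312, 1270, 1369 and 1224 with leptin. Restricted replicates 1, 4 and 5 were above the other 13 arrays, and the atrial-rich replicates 2 and 3 sat among the controls. Over all arrays the restricted group was 0.21 ± 0.09 above ad libitum (limma adjusted p = 0.208), 0.26 ± 0.09 above wild type (0.0646), and leptin was at -0.14 ± 0.08 against restriction (0.294).

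Without restricted replicates 2 and 3 all 3 Crat differences passed: 0.34 against ad libitum (limma adjusted p = 0.0361), 0.40 against wild type (0.00842), and -0.27 for leptin against restriction (0.0395). The change against wild type also passed without replicate 2 alone (0.31, limma adjusted p = 0.0360), without replicate 3 alone (0.31, 0.0353), with the atrial covariate (0.31, 0.0178) and with a trended, robust prior variance (0.26, 0.0302). Its dimmer probe sets did not follow it: in restriction against ad libitum 1441919_x_at gave -0.0052 ± 0.28 and 1448544_at gave -0.21 ± 0.17. The plot of signal against atrial markers places the arrays of Cpt1a, Mlycd and Crat side by side.

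**Figure D3:**
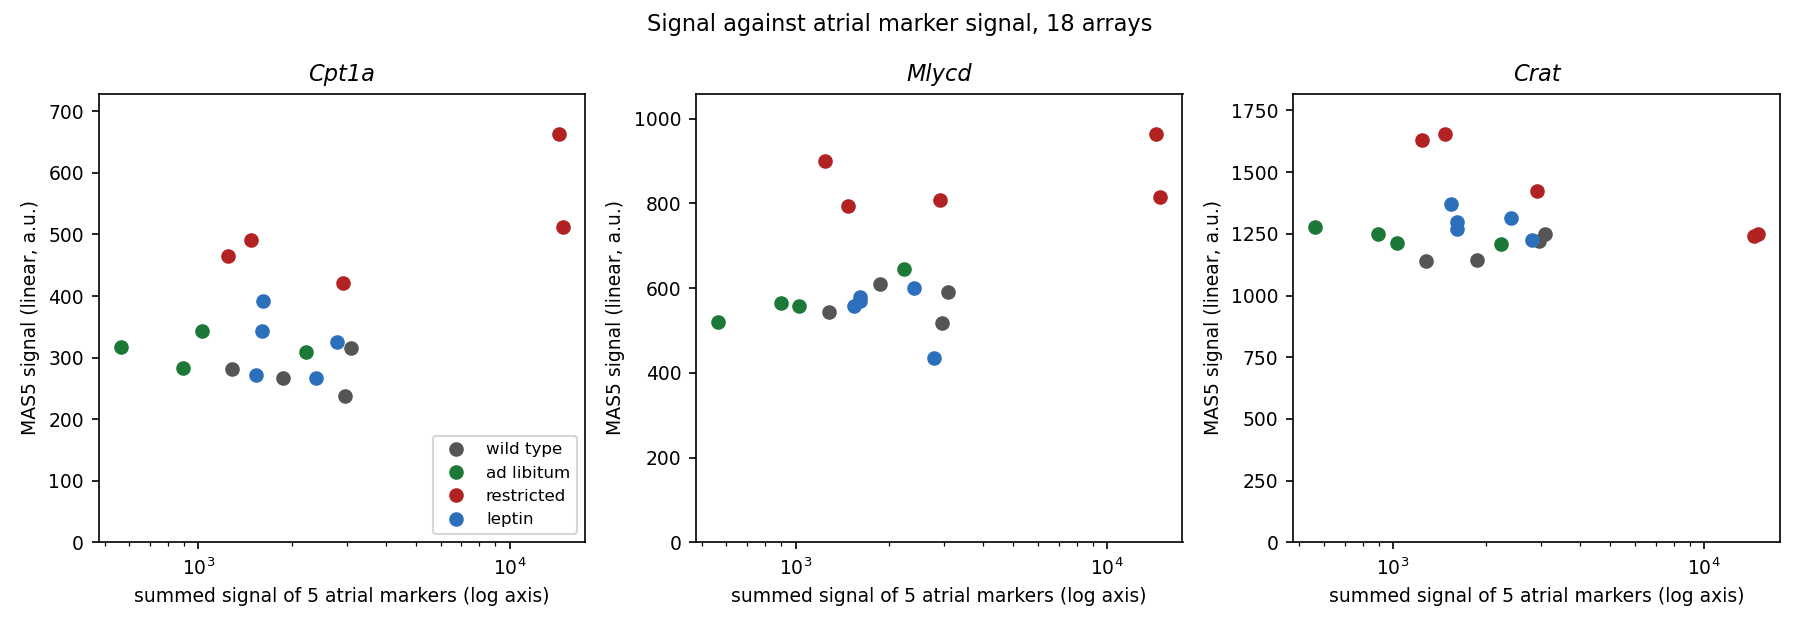
MAS5 signal of Cpt1a, Mlycd and Crat (linear axes from 0) against the summed signal of 5 atrial markers (log axis) on 18 arrays, coloured by group. The restricted arrays with 14409 and 14851 atrial signal lie far right: they are among the higher Cpt1a and Mlycd arrays, and for Crat they lie at 1243 and 1247, level with the other groups.

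Malonyl-CoA decarboxylase gave the clearest separation. Mlycd, which breaks malonyl-CoA down to acetyl-CoA, read 609, 590, 519 and 544 in wild type (565 ± 41.6, SD, n = 4) and 646, 521, 565 and 558 ad libitum (572 ± 52.6, n = 4). Under restriction it read 808, 963, 814, 900 and 794 (856 ± 73.0, n = 5), and with leptin 570, 599, 580, 558 and 436 (549 ± 64.9, n = 5). Restricted arrays were all above the rest, with a gap between 646 and 794, and the other 3 groups overlapped. How many of all genes tested have every restricted array on top was not counted, for Mlycd or for Cpt1a.

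The restricted mean of Mlycd was 1.5 times the ad libitum mean, a log2 change of 0.58 ± 0.10 (SE; 0.36 to 0.79; limma adjusted p = 0.00293). Against wild type the change was 0.59 ± 0.10 (limma adjusted p = 0.00127). Leptin against restriction was -0.64 ± 0.09 (limma adjusted p = 3.19e-04). Among the 3 remaining differences the intervals were -0.21 to 0.24 for ad libitum against wild type, -0.28 to 0.15 for leptin against ad libitum and -0.26 to 0.16 for leptin against wild type. Without restricted replicates 2 and 3 the 3 changes that passed were 0.54 (limma adjusted p = 0.0222), 0.56 (0.0104) and -0.61 (0.00407), and with the atrial covariate they were 0.53 (0.0274), 0.57 (0.00263) and -0.60 (0.00274).

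The carboxylases that make malonyl-CoA did not pass in any comparison. Acacb, the form bound to mitochondria and taken as the source of the malonyl-CoA that meets Cpt1 enzymes, read 941, 900, 941 and 1003 in wild type and 750, 821, 952 and 963 ad libitum. It read 974, 1116, 912, 1151 and 1166 under restriction and 1109, 1189, 863, 999 and 815 with leptin. The highest array belonged to the leptin group and the lowest to the ad libitum group, and the restricted range lay inside that span. Restriction against ad libitum gave 0.29 ± 0.12 (0.04 to 0.54; unadjusted p = 0.0261; limma adjusted p = 0.184), and leptin against restriction gave -0.10 (-0.34 to 0.13; limma adjusted p = 0.598).

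Acaca, the cytosolic carboxylase that feeds fatty acid synthesis, had means of 97.1 ± 7.79 in wild type, 104 ± 10.2 ad libitum, 110 ± 20.5 under restriction and 95.3 ± 14.5 with leptin. Restricted replicate 4, at 74.0, was the lowest of all 18 arrays, and the other 4 restricted arrays read 115 to 125. Its change in restriction against ad libitum was 0.07 (-0.22 to 0.36; limma adjusted p = 0.863), and in leptin against restriction -0.19 (-0.46 to 0.09; limma adjusted p = 0.387). Without restricted replicate 4 these were 0.20 (limma adjusted p = 0.351) and -0.32 (0.0531), and restriction against wild type was 0.28 (0.112). The levels of different genes are not set against each other, because probe sets differ in how strongly they bind.

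Before treatment is considered, ad libitum ob/ob and wild type hearts, which differ in genotype and may differ in age, showed no called difference in these genes. In ad libitum ob/ob against wild type hearts, 0 of 7 were called in the limma fit and 0 had an unadjusted p under 0.05, where 0.299% of all genes were called. Changes ran from -0.13 for Acacb to 0.19 for Cpt1a. The same held for leptin against ad libitum, with 0 of 7 called and 0 at an unadjusted p under 0.05 beside 0.644% of all genes, and changes from -0.12 for Acaca to 0.18 for Acacb. Leptin against wild type had 0 of 7 called, 0 at an unadjusted p under 0.05 and 0.00749% of all genes called, with Cpt1a at 0.21 the highest. These comparisons share arrays, and a p that misses the threshold does not show that the groups were alike.

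The probe sets of each gene were also compared, since the brightest was chosen by signal. In restriction against ad libitum, the dimmer Cpt1a sets 1434866_x_at and 1438156_x_at gave 0.71 ± 0.28 and 0.92 ± 0.28, the same direction as 0.68 for the bright set, but did not pass when all probe sets were fitted (limma adjusted p = 0.187 and 0.0778). In leptin against restriction they gave -0.67 and -0.90, and the second passed (limma adjusted p = 0.0353). Against wild type they gave 0.32 and 0.50, smaller than the 0.87 of the bright set, and neither passed (limma adjusted p = 0.557 and 0.309). They also took the opposite sign in ad libitum against wild type, -0.39 and -0.42 beside 0.19, and in leptin against wild type, -0.35 and -0.41 beside 0.21, none of which passed. The order of means with wild type lowest was therefore that of the bright set alone. Mlycd has 1 probe set, so it has no such check. The dimmer sets of Cpt2 and Acaca gave -0.20 ± 0.27 and -0.02 ± 0.18 for restriction against ad libitum, and the dimmer Acacb set, with a mean signal of 10.3, was left out by the filter.

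**Figure D4:**
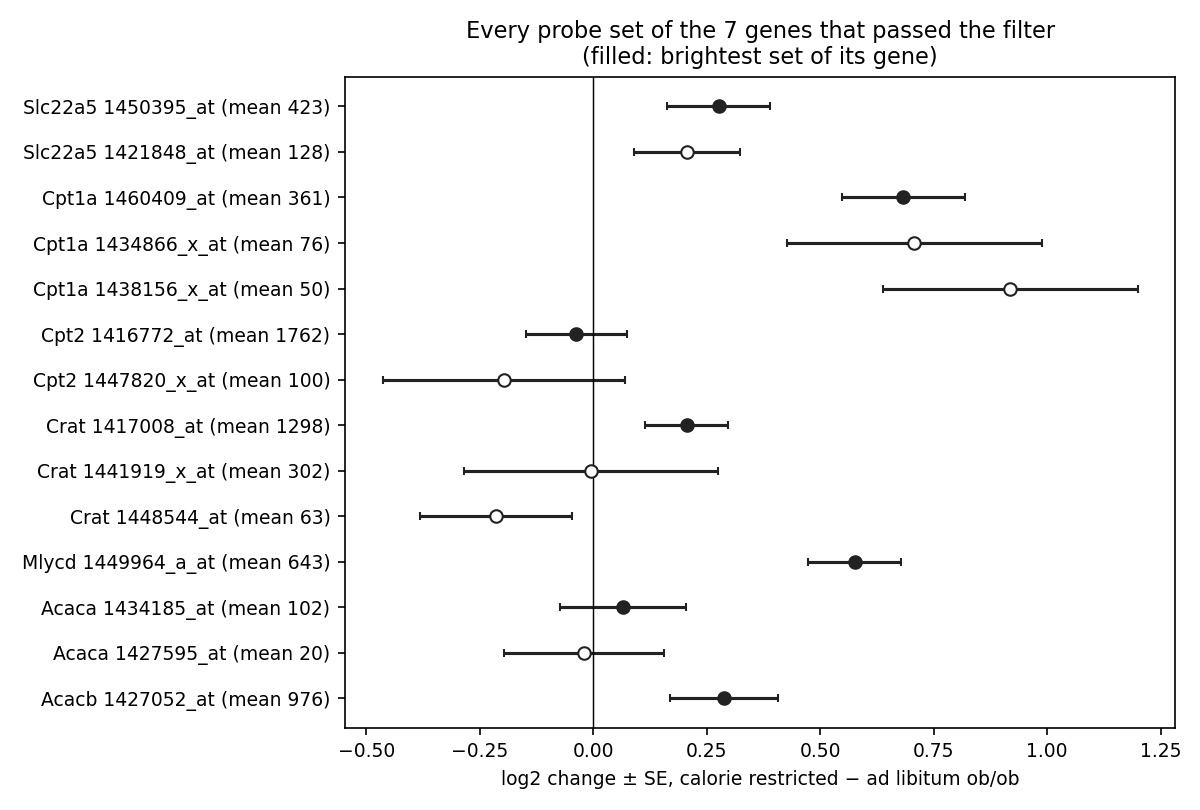
Log2 change ± SE of restricted against ad libitum ob/ob hearts for the 14 probe sets that passed the filter, with the mean signal of each; filled points are the brightest set of a gene. All 3 Cpt1a sets lie right of 0 (0.68, 0.71 and 0.92), and the 3 Crat sets spread on both sides (0.21, -0.0052 and -0.21).

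Over the 18 arrays, the genes whose log2 signal followed Cpt1a most closely among the 13359 tested were Vps33a (Pearson r = 0.93), Pja1 (0.93) and Gata6 (0.92). Mlycd was followed most closely by Eci2 (0.91), a beta-oxidation enzyme for unsaturated fatty acids, Fbp2 (0.91), the muscle form of fructose bisphosphatase, and Acot1 (0.91), an acyl-CoA thioesterase. The arrays of a group share their treatment, and once group means were removed r fell to 0.81, 0.65 and 0.66 for the partners of Cpt1a and to 0.44, 0.55 and 0.68 for those of Mlycd. Mean signal of Acot1 was 546 under restriction and 130, 132 and 189 in wild type, ad libitum and leptin hearts.

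The rest of the carnitine system was read from a list of 10 further genes, of which 7 passed the filter. Of all genes tested, 5.42% were called in restriction against ad libitum, 13.6% in leptin against restriction and 11.3% in restriction against wild type. The counts of this list and of those below are to be read beside these shares, which are from the fit with all 18 arrays. None is given for the fit without restricted replicates 2 and 3, which has fewer arrays. A lower count there cannot be told apart from fewer calls over all genes. In restriction against ad libitum 2 of 7 were called, both higher (median change 0.24): Slc25a20, the carrier that exchanges acylcarnitine for carnitine across the inner membrane, went from 1664 ± 201 to 2297 ± 207 (0.47 ± 0.10; limma adjusted p = 0.0116), and Aldh9a1, a dehydrogenase of carnitine synthesis, from 205 ± 28.3 to 285 ± 41.6 (0.46 ± 0.12; 0.0337). Slc25a20 was also called lower with leptin than under restriction (-0.45; limma adjusted p = 0.00503) and higher under restriction than in wild type (0.53; 0.00293), the same 3 comparisons as Cpt1a and Mlycd. It passed without restricted replicates 2 and 3 as well, at 0.54, -0.52 and 0.60 (limma adjusted p = 0.0234, 0.0110 and 0.00740), but the first change did not pass when only the 2 groups compared were fitted (0.0614). Aldh9a1 lost its call in restriction against ad libitum without those 2 arrays (limma adjusted p = 0.113) and in 6 of 18 fits that left out 1 array, and leptin hearts, at 293 ± 25.7, were not below restricted ones. Cpt1c, a form known from brain, had a mean of 31.5 under restriction and 8.49 with leptin. The leptin mean is under the filter level, 15.4 in signal, so neither a fold nor a call is given for it.

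Around malonyl-CoA, 13 genes of its supply and use gave a median change of 0.0071 in restriction against ad libitum, and 1 of 13 was called. That was Elovl5, an elongase that uses malonyl-CoA, which was lower (340 ± 17.4 to 268 ± 14.2; -0.34; limma adjusted p = 0.0178); the call was lost without ad libitum replicate 3 or 4 (highest limma adjusted p 0.0590) and without restricted replicates 2 and 3 (0.0616). In leptin against restriction 4 of 13 were called: Elovl5 (0.69; limma adjusted p = 2.27e-05), Mid1ip1, an activator of acetyl-CoA carboxylase (0.66; 0.00323), and Mecr (0.47; 0.0275) were higher, and Hlcs, which attaches biotin to carboxylases, was lower, with means of 45.9 under restriction and 15.4 with leptin; the latter is at the filter level, so no fold is given. Mecr and Hlcs lost the call in 4 and 7 of 18 fits without 1 array, and 2 of 13 were called without restricted replicates 2 and 3. Against wild type, restricted hearts had 2 of 13 called lower, Elovl5 (-0.56; limma adjusted p = 3.32e-04) and Mid1ip1 (-0.59; 0.0107), the latter at a limma adjusted p of 0.0552 without the 2 atrial-rich arrays and 0.0649 with only the 2 groups compared. The Mid1ip1 difference in leptin against restriction did not pass with the adipocyte covariate (limma adjusted p = 0.0656).

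AMP-activated kinase phosphorylates the carboxylases and so lowers malonyl-CoA. Of its 10 tested subunit and regulator genes, 0 were called in restriction against ad libitum by limma and 3 had an unadjusted p under 0.05; Prkag2 (0.44; limma adjusted p = 0.104) and Stk11 (0.28; 0.127) had the smallest. In leptin against restriction 2 of 10 were called, beside 13.6% of all genes. These were Prkab2 (-0.41, limma adjusted p = 0.0146) and Prkag2 (-0.51, 0.0258), and 0 were called without restricted replicates 2 and 3. In restriction against wild type 1 of 10 was called, beside 11.3% of all genes. This was Prkab1 (0.29, limma adjusted p = 0.0431), a call lost in 13 of 18 fits without 1 array.

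Downstream of the shuttle, 15 genes of mitochondrial beta-oxidation had a median change of 0.18 in restriction against ad libitum, and 2 of 15 were called, both higher: Eci2 (1204 ± 91.7 to 1775 ± 124; 0.56; limma adjusted p = 7.32e-04) and Eci1 (0.35; 0.0375), the latter lost in 8 of 18 fits without 1 array. Against wild type 9 of 15 were called higher, and 6 without restricted replicates 2 and 3; in leptin against restriction 6 were lower and 1 higher, and 4 in all without those arrays. PPAR-alpha is the nuclear receptor that senses fatty acids and is known to act on Cpt1a and Mlycd. Its part in the changes reported here was not tested. Of 10 genes taken as responsive to it, 7 were called higher in restriction against ad libitum (median 0.73), and 4 without restricted replicates 2 and 3. Angptl4 went from 108 ± 19.0 to 626 ± 140 (2.47, limma adjusted p = 1.59e-04) and Ucp3 from 184 ± 25.9 to 661 ± 129 (1.80, 1.74e-04). Acot1 went from 132 ± 12.6 to 546 ± 102 (limma adjusted p = 0.00275) and Acot2 from 557 ± 26.5 to 846 ± 80.4 (0.00521). In leptin against ad libitum 0 of 10 were called, beside 0.644% of all genes, with a median of 0.29. In ad libitum against wild type 0 of 10 were called, beside 0.299%, with a median of -0.017. The medians of the 7 genes there were 0.019 and 0.059.

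Further upstream, 11 genes of acyl-CoA supply had 3 called in restriction against ad libitum: Slc27a1, a fatty acid transporter (0.79; limma adjusted p = 2.80e-04), and Dbi, the acyl-CoA binding protein (0.41; 0.0115), were higher, and Acsl5 was lower (-0.39; 0.0347), the last lost in 7 of 18 fits without 1 array. Of 19 transcription factors and cofactors of fatty acid use, 1 was called there, the thyroid hormone receptor Thra (0.56; limma adjusted p = 0.0225), a call lost without ad libitum replicate 1 or 3 or restricted replicate 5 (highest limma adjusted p 0.0749). In restriction against wild type 4 of 19 were called: Ppargc1a, a coactivator of mitochondrial genes (-0.81; limma adjusted p = 2.41e-04), Ppara (-0.76; 0.00519) and Mlxipl (-0.49; 0.0422) were lower and Thra was higher (0.84; 9.77e-04). Ppargc1a was lower than in wild type already in ad libitum ob/ob hearts (means of 567 and 1288; -1.17; limma adjusted p = 1.04e-04), restricted hearts at 732 lay above ad libitum without passing (0.36; 0.0682), and leptin hearts at 919 were higher than ad libitum (0.69; 0.00870) and restricted hearts (0.33; 0.0396). Mlxipl lost the call in 11 of 18 fits without 1 array, and 3 of 19 were called without restricted replicates 2 and 3. The plot of gene lists sets these beside the 7 genes.

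**Figure D5:**
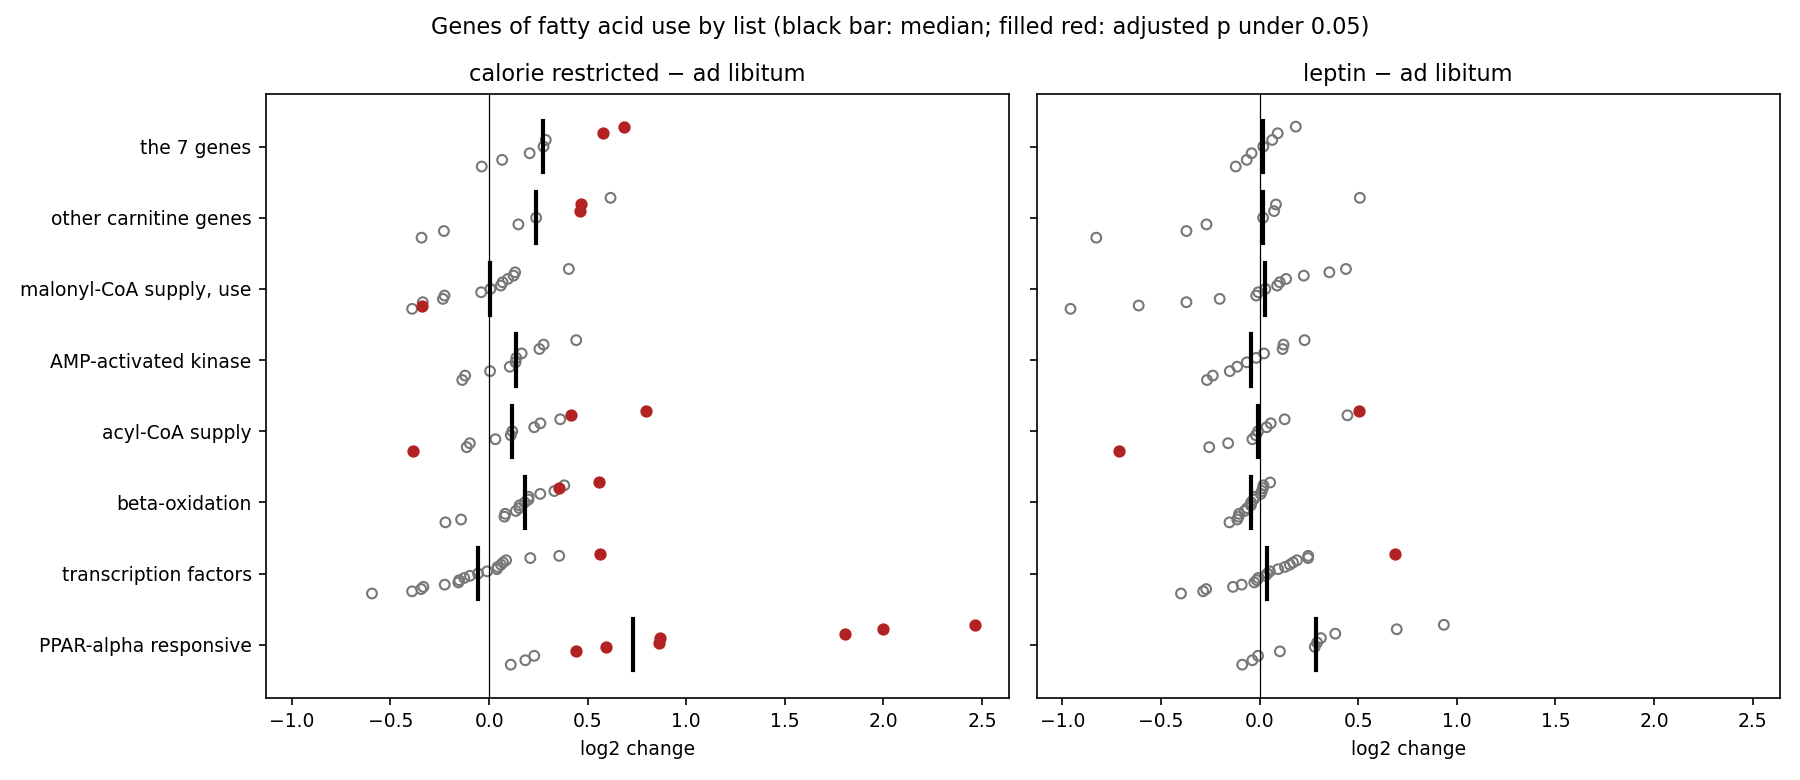
Log2 change of every tested gene of 8 lists in restriction (left) and leptin (right) against ad libitum ob/ob hearts; each point is a gene, black bars are list medians and filled red points passed at an adjusted p under 0.05. Medians on the left were 0.28 for the 7 genes, 0.24 for the other carnitine genes, 0.0071 for malonyl-CoA supply and use and 0.73 for PPAR-alpha responsive genes.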

How the data were processed

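MAS5 signals on 18 arrays were used as the authors deposited them, 1 linear intensity per probe set and array; MAS5 is named per the submitters' processing notes, without version or settings. The deposited intensities had a 2% trimmed mean of 100.001 on every array, so differences in total signal had been removed. Probe sets with 1 symbol in the platform annotation (34945 of 45101) gave 18193 genes. Signals were analysed as log2(signal + 5.13), the 20th percentile of all signals, which understates changes of dim genes; genes under the 40th percentile of mean log2 value (4.36) were left out and 13359 were tested.

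One limma model (limma 3.58.1, R 4.3.3) over all arrays gave 6 two-sided contrasts and an F test, with Benjamini-Hochberg adjustment over all genes of a comparison. Errors are SE of the fit or SD between arrays, and with arrays their number limits precision. The procedure was tested on simulated data. The genes and lists were chosen with earlier results of these data known. All 7 genes are named; of each list, up to 4 called genes with the smallest p (or 2 where none was called). The 3 genes with the highest r are named for each called member. Upstream windows come from RefSeq (GRCm38.p6).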

Additional observations from a re-analysis of the deposited data

Results flagged for a closer look

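In 28 groups of values, 7 genes in 4 groups each, the array farthest out was set against the range of its group, and 2 stood beyond Dixon's limit, which chance exceeds in about 1 in 20 groups. Mlycd read 436 in ob/ob leptin replicate 5 and 558 to 599 on the other leptin arrays. Acaca read 74.0 in ob/ob calorie restricted replicate 4 and 115 to 125 on the other restricted arrays.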

How the results depend on the processing

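Pseudocounts of 1 and 32, no filter, quantile normalization, all probe sets, a trended prior, only the compared groups, marker covariates and leaving out arrays were tried. Of 1218 alternative values of the 7 genes, 34 changed sign, 0 of them where either value had passed. The 1 call lost was that of Cpt1a in restriction against ad libitum with the atrial covariate. The 7 calls gained were all of Crat. The number called was 1 in place of 2 in restriction against ad libitum with the atrial covariate. It was 3 without the 2 atrial-rich arrays in each comparison with the restricted group and in the F test, 3 in the F test and in restriction against wild type with the atrial covariate, and 3 in the latter with the trended prior; with 1 array left out it ran from 2 to 3 there. In all other cases it stayed at 0 or 2. Of 61 called differences of listed genes that were refitted, 40 passed under every alternative. The labels' replicate numbers did not pair the arrays: correlations of deviations between same-numbered arrays ran from -0.18 to 0.34. With the replicate number as a block the counts stayed at 2, 2 and 2 in the comparisons with the restricted group.

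Signs changed at values near 0. With the atrial covariate Crat was at -0.016 in ad libitum against wild type, Cpt2 at 0.066 and Acaca at -0.11 in restriction against ad libitum, and Acaca at 0.045 in leptin against wild type. Without the 2 atrial-rich arrays Cpt2 was at 0.034 and Acaca at -0.041 in restriction against ad libitum. With the adipocyte covariate Cpt2 was at 0.028 there, and Cpt2, Acaca and Acacb at -0.012, 0.0084 and -0.086 in leptin against wild type. With quantile normalization Cpt2 was at 0.016 in leptin against restriction, -0.0028 in leptin against wild type and -0.019 in restriction against wild type. With the replicate block Cpt2 was at 0.0014 in restriction against ad libitum and Mlycd at 0.0036 in leptin against wild type. The cause was not tested. With 1 array left out, Slc22a5 ran from -0.12 to 0.0057 and Mlycd from -0.043 to 0.059 in ad libitum against wild type; Cpt1a from -0.057 to 0.078, Cpt2 from -0.10 to 0.056 and Mlycd from -0.11 to 0.015 in leptin against ad libitum; Cpt2 from -0.082 to 1.6e-04 in restriction against ad libitum and from -0.067 to 0.093 in leptin against restriction. In leptin against wild type Slc22a5 ran from -0.025 to 0.11, Mlycd from -0.090 to 0.031, Acaca from -0.10 to 0.016 and Acacb from -0.0094 to 0.13. Groups of 4 and 5 arrays limit what could be resolved.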
